A study of Drosophila melanogaster with 2 samples.

Results

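The regions described here are promoter peaks of the Rough transcription factor that have no divergent partner. They were taken by position alone from the authors' thresholded peak list over both replicates: a peak was a member when its summit lay within 500 bp of an annotated transcript start, and it was left out when the summit lay between a left minus-strand and a right plus-strand protein-coding start that were each within 500 bp. This gave 600 of the 1969 peaks. The list also held 269 peaks between divergent starts, 1014 peaks on the chromosome arms over 500 bp from every start, and 86 peaks on unplaced sequences whose names were not matched to the annotation. The data are chromatin immunoprecipitation (ChIP-seq) peaks of a Drosophila melanogaster strain labelled ro-GFP, which expresses Rough fused to eGFP and was pulled down with an antibody against GFP. Whole embryos aged 0 to 24 h were used and their chromatin was sonicated to 200 to 800 bp. There was 1 group with 2 biological replicates, both carrying the fusion, and no control was analysed here. The promoter that drives the fusion is not stated in the labels, and a pool of whole embryos does not show in which cells or at which hour a region was occupied.

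Rough is a homeodomain protein, best known for its part in spacing the photoreceptor clusters of the fly eye. Homeodomains as a class prefer short A+T-rich words with a TAAT core. In the compact fly genome many genes stand head to head and share 1 upstream region, a divergent promoter. Others start alone, with the region upstream of the start facing an intergenic stretch, an intron or the end of a neighbour. At a fly promoter the stretch just upstream of the start is usually poor in nucleosomes and is where many factors and tagged proteins are recovered by ChIP.

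The sequences at the summits show what these promoters look like. Each is the stretch of the Release 6 genome (dm6, RefSeq) that reaches 50 bp to either side of the summit, written in the direction of transcription of the nearest start. Capitals mark any of the 16 short words searched, on either strand, so that CTCTC stands for GAGAG and TTTATA for TATAAA on the other strand. In the same way CATAAA below stands for TTTATG, and CCATTA at bowl for TAATGG read on the other strand. The first 5 are among the 15 strongest members and serve as examples of summits with high signal values. They are not the 5 strongest: mRpL41, px and PNPase, for instance, are not shown. They lie at chrX:2703832-2703932 (minus strand), chr3L:19590553-19590653 (minus), chrX:2137289-2137389 (minus), chr3R:12449140-12449240 (plus) and chr2L:10474471-10474571 (minus). Stretches rich in adenine and thymine fill them, and 3 of the 5 hold none of the words.
Ugalt: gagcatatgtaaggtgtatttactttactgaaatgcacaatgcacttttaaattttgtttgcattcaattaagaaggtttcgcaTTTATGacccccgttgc
CG14100: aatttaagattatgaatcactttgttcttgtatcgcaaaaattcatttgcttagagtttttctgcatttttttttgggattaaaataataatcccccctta
ph-p: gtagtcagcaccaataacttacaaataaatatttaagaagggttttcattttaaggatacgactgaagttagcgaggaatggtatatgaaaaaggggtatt
CG18549: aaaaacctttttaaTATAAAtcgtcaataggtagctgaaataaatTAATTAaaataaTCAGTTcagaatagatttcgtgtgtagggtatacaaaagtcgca
RluA-1: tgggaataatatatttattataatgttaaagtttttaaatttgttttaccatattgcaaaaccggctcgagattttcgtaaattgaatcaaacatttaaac

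The next 7 show words and gene groups that are described below. CG1907 (chr3R:29618852-29618952, plus) was the strongest member with GAGAG, where the last TTTATA runs straight into CTCTC. Best2 (chr3L:6256883-6256983, minus) was the strongest with CATCNCTA and was chosen after its values were seen. Hsp27 (chr3L:9383855-9383955, plus) and Hsp26 (chr3L:9377459-9377559, minus) are small heat shock genes, RpL23A (chr3L:1668711-1668811, minus) encodes a protein of the large cytoplasmic ribosomal subunit, and org-1 (chrX:8455379-8455479, minus) and bowl (chr2L:3771436-3771536, plus) encode a T-box and a zinc finger patterning factor. The A+T content of the RpL23A window was 47.5%, against 67.3% in both heat shock windows, 72.3% at org-1 and 76.2% at bowl.
CG1907: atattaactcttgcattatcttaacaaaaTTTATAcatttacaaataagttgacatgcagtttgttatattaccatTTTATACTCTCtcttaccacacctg
Best2: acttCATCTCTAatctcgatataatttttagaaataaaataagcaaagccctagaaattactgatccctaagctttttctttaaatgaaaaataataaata
Hsp27: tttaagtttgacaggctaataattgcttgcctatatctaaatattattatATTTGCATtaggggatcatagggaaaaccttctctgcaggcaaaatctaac
Hsp26: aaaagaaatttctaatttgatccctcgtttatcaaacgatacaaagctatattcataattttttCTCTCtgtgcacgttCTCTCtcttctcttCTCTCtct
RpL23A: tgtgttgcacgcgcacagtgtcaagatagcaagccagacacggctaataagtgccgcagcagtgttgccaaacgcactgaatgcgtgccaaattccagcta
org-1: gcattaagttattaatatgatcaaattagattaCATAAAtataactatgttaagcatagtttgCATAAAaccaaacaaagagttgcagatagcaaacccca
bowl: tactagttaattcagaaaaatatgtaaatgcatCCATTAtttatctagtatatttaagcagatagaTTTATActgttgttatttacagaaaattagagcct

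The strongest members belonged to genes of many kinds. The strongest lay 30 bp upstream of Ugalt, a gene for a sugar nucleotide transporter of the Golgi, with a signal value of 1265 over both replicates, 627.9 in replicate 1 and 639.8 in replicate 2. The signal value is the authors' own measure of enrichment per peak, on a scale that the sources used here do not state. It was followed by CG14100 (1073 over both, 521.6 in replicate 1 and 555 in replicate 2) and mRpL41, a mitochondrial ribosomal protein gene (1064 over both, 491.5 and 574.6). All 3 were among the 6 highest of both replicates' own ranked lists. Next came ph-p, a Polycomb group gene (808), px (794.3), PNPase, which encodes an RNA-degrading exonuclease of mitochondria (662.3), CG18549 (660.5), the antisense RNA asRNA:CR45928 at the start of eIF6 (644.4), the glutathione transferase gene GstE13 (640.4), and the prolyl isomerase gene Fkbp14 (619.6). The 10 that complete the 20 strongest were CG1888, the HMG-box factor gene Sox14, CG8320, the pseudouridine synthase gene RluA-1, the reticulon gene Rtnl1, CG9147, Tina-1, lncRNA:CR44619, lncRNA:CR44339 and msi, which encodes the RNA-binding protein Musashi. Their signal values ran down to 496.5. All 20 overlapped a peak in each replicate's own thresholded list, and 16 had the summit upstream of the start.

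Most members were far weaker than these. The median signal value over the 600 was 112.1, with quartiles of 82.24 and 173.7 and a range of 2.268 to 1265, and 19 members reached 500. Of the 600, 463 had the common width of 380 bp. A q value above 0.05 was listed for 281 members (46.8%), although all had passed the authors' cut on reproducibility between replicates. All 31 members with a signal value under 30 overlapped a stronger peak of the list, and so did 5 more with signal values up to 130.7. These 36 count as members of their own, and leaving them out is among the alternatives in the closing section.

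Members were found in both replicates' own lists more often than non-promoter peaks, and lay above the median signal of the list more often. Against peaks between divergent starts both shares were lower: the one on signal passed the test over the whole list but not in either replicate's own list, and the one on replicates did not pass. In both lists were 290 of 600 members (48.3%, Wilson 95% interval 44.4 to 52.3), against 335 of 1100 non-promoter peaks (30.5%, 27.8 to 33.2). The odds ratio was 2.14 (95% interval 1.74 to 2.62, adjusted p = 1.81e-12, Fisher's exact test, Benjamini-Hochberg over 4 comparisons). Above the median signal were 340 members (56.7%) and 465 non-promoter peaks (42.3%), an odds ratio of 1.79 (1.46 to 2.18, adjusted p = 3.17e-08 in the same family of Fisher's exact tests). Here non-promoter peaks are the 1014 on the arms and the 86 on unplaced sequences.

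Peaks between divergent starts gave 148 of 269 (55.0%) in both lists, against the 48.3% of members, an odds ratio of 0.765 (0.573 to 1.02) that did not pass (adjusted p = 0.0781, Fisher's exact test). With an overlap of at least 50% required, this odds ratio was 0.704 and passed. Above the median signal were 56.7% of members and 179 of 269 divergent peaks (66.5%), an odds ratio of 0.657 (0.487 to 0.888, adjusted p = 0.00937, Fisher's exact test). That call was lost in each replicate's own list, where the odds ratio was 0.881 without replicate 2 and 0.838 without replicate 1, and when the strongest 25% of the list took the place of its upper 50% (0.764). These tests treat each peak as 1 observation, and 1 group of 2 replicates allows no comparison over samples. Read totals are not part of the lists, which leaves the depth unknown, and every interval here reflects only how many peaks or genes were counted.

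**Figure D1:**
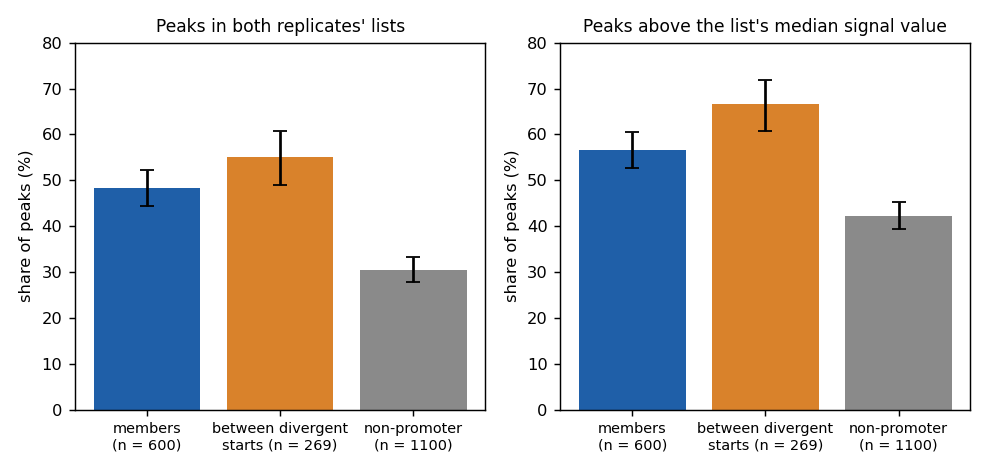
Share of peaks in both replicates' own lists (left) and above the median signal value of the list (right), in percent, for members, peaks between divergent starts and non-promoter peaks; bars are shares and whiskers are Wilson 95% intervals. Members reach 48.3% and 56.7%, above the non-promoter peaks at 30.5% and 42.3%, and below the divergent peaks at 55.0% and 66.5%, with intervals of members and divergent peaks that overlap on the left.

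Candidates at single promoters overlapped a peak that passed the authors' threshold less often than those between divergent starts, and more often than those far from starts. The authors' ranked list over both replicates holds all candidates before the cut. At promoters without a divergent partner 662 of 17727 candidates (3.73%, Wilson 95% interval 3.47 to 4.02) overlapped a thresholded peak, against 283 of 958 (29.5%, 26.7 to 32.5) between divergent starts and 1160 of 121951 (0.951%) over 500 bp from every start on the arms. Counted by gene, 484 of 10153 protein-coding genes without a head-to-head partner within 500 bp (4.77%) had a promoter peak of either kind, against 580 of 3815 genes with such a partner (15.2%). A peak between divergent starts counts for both of its genes. In each replicate's own list the share of candidates at single promoters was 4.23% in replicate 1 and 2.42% in replicate 2. Over all classes replicate 1 had 1484 thresholded peaks beside 93400 ranked ones, and replicate 2 had 1113 beside 121684. The gap between the 2 shares is therefore not particular to single promoters.

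The members lay upstream of the start. The summit was upstream of the nearest start in 482 of 600 members (80.3%, 77.0 to 83.3), against 6458 of 17065 candidates at the same kind of promoter that overlapped no thresholded peak (37.8%, 37.1 to 38.6). The odds ratio was 6.71 (5.47 to 8.22, p = 5.05e-97, Fisher's exact test over peaks). The median summit was at -156 bp in members and at 102 bp, downstream of the start, in candidates. Between 50 and 250 bp upstream lay 306 members (51%). Both sets were drawn from the same 500 bp on either side of a start.

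**Figure D2:**
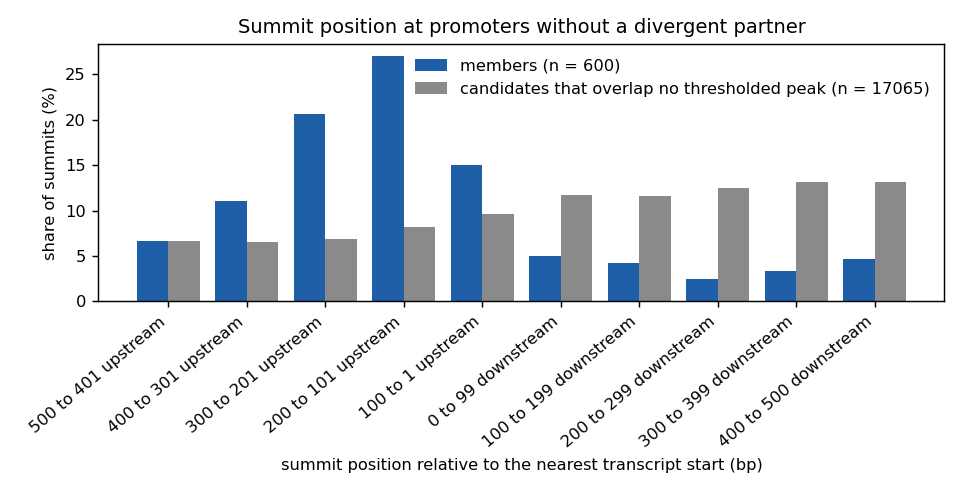
Position of summits relative to the nearest transcript start in bins of 100 bp, as the share in percent of 600 members and of 17065 candidates that overlap no thresholded peak. Members peak at 27.0% in the bin between 200 and 100 bp upstream, and candidates stay between 6.51% and 13.2% in every bin.

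Signal values differed between the position bins, which are described here without a test. Members with a summit between 300 and 200 bp upstream had the highest median signal value of the 10 bins (141.8, 124 members, 54.0% in both lists), followed by those between 200 and 100 bp upstream (125.4, 162 members, 56.2% in both). The 90 members within 100 bp upstream had a median of 98.41. The 482 upstream members had a median of 118.2 with 50.8% in both lists, and the 118 at or downstream of the start had 91.99 with 38.1% in both. At the outer limit, the 33 members whose summit was over 450 and up to 500 bp away had a median of 109.6 with 45.5% in both lists, and the 32 peaks just outside, at over 500 and up to 550 bp, had 94.98 with 40.6%.

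The starts were mostly those of protein-coding genes, 529 of 600. A further 63 members were nearest to a non-coding RNA start, 3 to a microRNA, 2 each to a tRNA and a small nuclear RNA, and 1 to a small nucleolar RNA. The median signal value was 111.7 at protein-coding starts and 115.4 at the 63 non-coding RNA starts, where 49.2% were in both lists against 48.2%. The strongest of those 63 were asRNA:CR45928 (276.5 in replicate 1, 366.6 in replicate 2), lncRNA:CR44619 (294 and 224.9) and lncRNA:CR44339 (288.7 and 221.2). In 269 members the start was the only one of its gene, in 137 it was the most upstream of several, and in 194 it was an alternative start further downstream, with median signal values of 111.5, 106.6 and 117.3. The summit lay outside every transcript in 264 members, inside a transcript of the same gene in 272 and inside another gene in 64. Head-to-head neighbours were not wholly absent: 51 members had a protein-coding partner over 500 and up to 1000 bp away, and 12 faced a non-coding start within 500 bp. A further 14 lay beside a close divergent pair with the summit outside it. These distances are from the summit, whereas the partners counted by gene are set by the distance between starts.

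The 600 members were nearest to 557 genes, and 39 genes held several, or 17 when members that overlap a stronger peak are left out. Rtnl1, which encodes an endoplasmic reticulum shaping protein, held 4, at 3 of its starts. Its strongest, at chr2L:4997524-4997789, had 290.6 in replicate 1 and 246.7 in replicate 2. The second, at chr2L:5005079-5005244, had 96.33 and 113.4. The other two, which overlap, were weaker, at 110.2 and 26.35 over both replicates, and neither was in both replicates' own lists. Ptpmeg2, a tyrosine phosphatase gene, held 3 members at separate starts, with signal values of 229.6, 221.6 and 102.1 and summits 181, 131 and 135 bp upstream. CAP, an adaptor protein gene, also held 3, at 133.8, 133.7 and 4.013, the last overlapping a stronger one. At ph-p 1 member was 484 bp upstream of a start (808) and 1 was 459 bp downstream of another (373.1), and lncRNA:CR44619 had members on both sides of the same start (518.7 and 391.8).

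The replicates differed in which promoters they carried. Of the 600 members, 428 (71.3%) overlapped a peak in replicate 1's own list, 380 (63.3%) overlapped one in replicate 2's, and 82 (13.7%) were in neither. Replicate 1's list held 1484 peaks with a median width of 356 bp, and replicate 2's held 1113 with 276 bp. The overlap shares also depend on these sizes. Peaks at promoters without a divergent partner made up 31.6% of replicate 1's list and 34.5% of replicate 2's. Over the 546 members with a signal value in both ranked lists the values rose together, with a Spearman rho of 0.578, against 0.655 over 260 divergent peaks and 0.398 over 921 peaks far from starts. These are descriptions across peaks of the same 2 libraries. Median signal values were higher in replicate 1 for members (66.54 and 54.57), divergent peaks (69.67 and 59.48) and peaks far from starts (56.09 and 42.69). Replicate 1's value was the larger in most members: the median ratio of replicate 1 to replicate 2 was 1.22, and replicate 2 was higher in 188 of 546 (34.4%).

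That balance changed with the distance to the start. Within 100 bp upstream, 56.7% of the 90 members were in replicate 1's list and 75.6% in replicate 2's, whereas between 300 and 200 bp upstream 81.5% of 124 were in replicate 1's and 62.1% in replicate 2's. In 4 of the 5 downstream bins, of 15 to 30 members each, replicate 2's share was also the higher, at 55% to 60% against 45% to 56.7%, and in the outermost, with 28 members, it was 50% against 78.6%. In the 2 upstream bins above replicate 2 had the higher signal value in 56 of 84 members and in 25 of 118. From the start outward, the downstream bins gave 13 of 24, 6 of 14, 8 of 15, 7 of 19 and 5 of 24. Signal values there did not follow list membership in every bin. The 90 members in replicate 2's list alone had a median position of -86 bp and a mean A+T content at the summit of 59.1% (SD 10.9). The 138 in replicate 1's list alone were at -203.5 bp with 68.6% (SD 8.44), and the 290 in both were at -164 bp with 68.6% (SD 9.39). The same held in the replicates' own lists classed by the same rule: 42 of 469 such peaks of replicate 1 (8.96%, 6.69 to 11.9) and 77 of 384 of replicate 2 (20.1%, 16.4 to 24.3) lay within 100 bp upstream. The position bins compared here were chosen after the values were seen, so no test is given, and what differed between the 2 libraries was not tested.

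**Figure D3:**
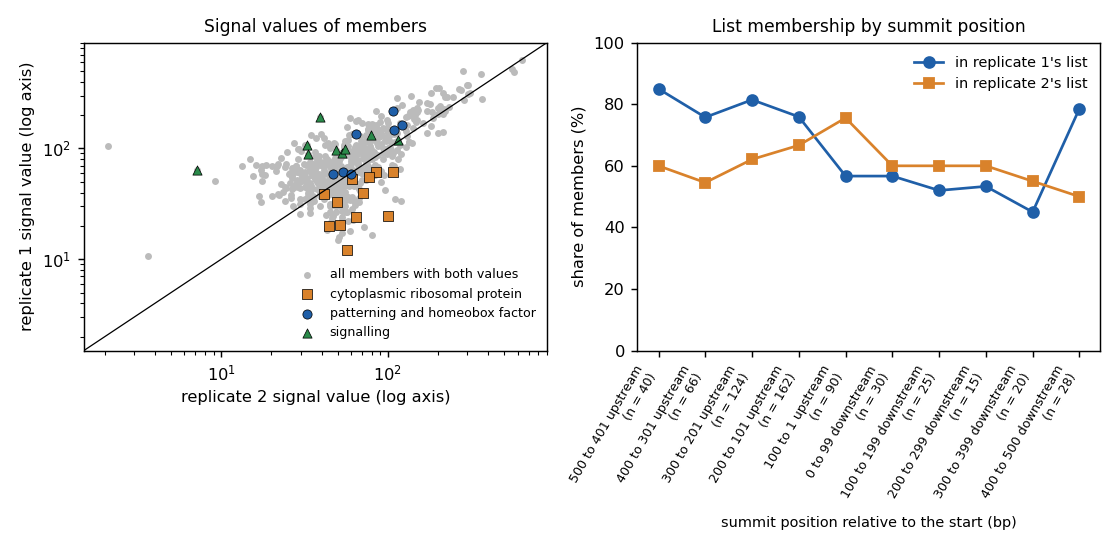
Left, signal value in replicate 1 against replicate 2 on log axes for each member with both values, with 3 gene lists coloured and a line of equality; right, share of members in percent in each replicate's own list by summit position. Ribosomal protein promoters all lie on the replicate 2 side of the line, and the share in replicate 2's list exceeds that in replicate 1's at 100 to 1 bp upstream (75.6% and 56.7%) and in the downstream bins except the outermost (50% and 78.6%).

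The genes with a member were counted by function, for lists chosen with earlier results of these data known. Over all 13968 protein-coding genes, 535 (3.83%) had a member within 500 bp of a start, and over the 10153 without a head-to-head partner, 449 (4.42%). Cytoplasmic ribosomal protein genes had the highest share of the 22 lists, 15 of 93 (16.1%, Wilson 95% interval 10 to 24.9), and 12 of 56 (21.4%) among those without a partner. Without members that overlap a stronger peak it was 12 of 93 (12.9%), and heat shock genes had the higher share. Heat shock genes followed with 4 of 29 (13.8%), insulator protein genes with 2 of 18 (11.1%), muscle structure genes with 4 of 40 (10%), translation factor genes with 5 of 54 (9.26%) and signalling genes with 9 of 121 (7.44%). Patterning and homeobox factor genes had 7 of 119 (5.88%), ecdysone and nuclear receptor genes 2 of 38 (5.26%) and Polycomb group genes 1 of 20 (5%). Close to or under the share of all genes were autophagy and vesicle traffic (6 of 175, 3.43%), neural factor (2 of 60, 3.33%) and trithorax group genes (1 of 32, 3.12%). One gene each carried a member in the lists of eye development (47 genes), the proteasome (49), the ubiquitin pathway (59), the cell cycle (69) and mitochondrial ribosomal proteins (73).

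**Figure D4:**
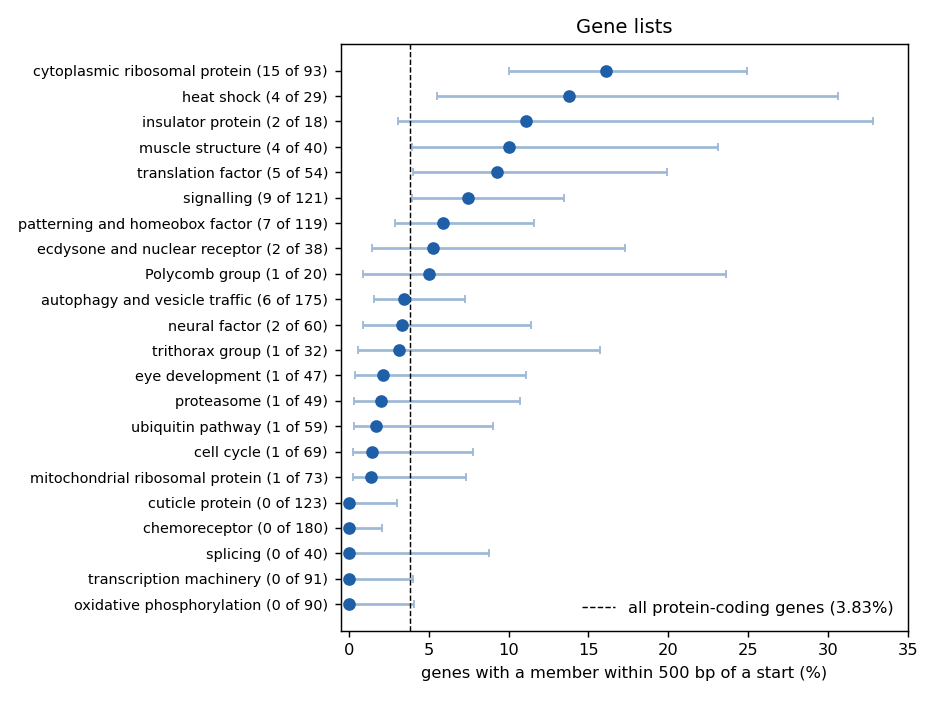
Share of the genes of each list, in percent, with a member within 500 bp of a start; points are shares, whiskers are Wilson 95% intervals and the dashed line is the share over all protein-coding genes (3.83%). Cytoplasmic ribosomal protein genes (15 of 93) lie furthest to the right, and 5 lists have no gene with a member.

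No member lay at a gene of 5 lists. Taken as 3 counts of the list, which is less than the upper end of the Wilson interval drawn for the same lists, a count of 0 allows up to 1.67% of the 180 chemoreceptor genes, 2.44% of the 123 cuticle protein genes, 3.33% of the 90 oxidative phosphorylation genes, 3.30% of the 91 transcription machinery genes and 7.50% of the 40 splicing genes. The Wilson upper ends were 4.09% for oxidative phosphorylation, 4.05% for transcription machinery and 8.76% for splicing genes, above the 3.83% over all genes. Those lists held 51, 35 and 12 genes without a head-to-head partner. For chemoreceptor and cuticle genes the upper ends were 2.09% and 3.03%, below that share, and the count was also 0 with divergent peaks included. Transcription machinery genes had 10 with a promoter peak of either kind, all through divergent promoters, and oxidative phosphorylation genes had 4. The lists of eye development and homeobox genes did not hold ro itself among genes with a member. The eye list's single gene was spi, which encodes the ligand of the EGF receptor (99.68 in replicate 1, 55.34 in replicate 2).

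Ribosomal protein promoters had low signal values and summits near the start: those of all 15 lay between 107 bp upstream and 158 bp downstream. The strongest in both replicates' lists were RpS28b, with 61.75 in replicate 1 and 107.5 in replicate 2, RpL23A (60.92 and 84.58) and RpL27A (55.29 and 76.88), with summits 16, 107 and 18 bp upstream. The median signal value of the 15 was 79.9, against 112.1 over all members, and 6 of them were in both lists. Among the 15, RpL31, RpS20 and RpL14, named here after their values were seen, had signal values of 12.14, 4.648 and 10.32 and overlapped a stronger peak. Without them 12 genes were left, 4 of them in both lists, with a median signal value of 93 and summits from 107 bp upstream to 56 bp downstream. Replicate 2 was higher in all 12 that had a value in both replicates, with a median ratio of replicate 1 to replicate 2 of 0.564 against 1.22 over all members. Members near the start in general had ratios below 1, with medians of 0.871 at 100 to 1 bp upstream and 0.938 at 0 to 99 bp downstream. Among translation factor genes replicate 2 was also higher in 5 of 5, with a median ratio of 0.825, closer to that of members near the start. Of these, eIF6, which is needed to make the large ribosomal subunit, had 276.5 and 366.6. The elongation factor gene eEF1gamma had 68.75 and 108.9, and the initiation factor gene eIF3c had 71.22 and 74.98.

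All 7 patterning genes with a member were in both lists, with a median signal value of 208. The T-box gene org-1 had 216.8 in replicate 1 and 107.5 in replicate 2, bowl had 163.5 and 122.2, and the heart gene tinman (tin) had 147.3 and 108.4, with summits 360 and 214 bp upstream at the first 2. Replicate 2 was higher in 1 of the 7, and the median ratio of replicate 1 to replicate 2 was 1.34, close to the 1.22 over all members. Among the 9 signalling genes replicate 2 was higher in none, with a median ratio of replicate 1 to replicate 2 that was 0.973 on the log2 scale, against 0.29 over all members: sgg, the fly GSK3 kinase gene, had 131.8 and 79.51, the corepressor gene gro had 119.5 and 114.3, and numb, which encodes an inhibitor of Notch, had 192.2 and 38.98. The neuronal RNA-binding protein gene elav had 213.5 and 135.8, and the 2 ecdysone-list genes E23, a transporter gene, and Hnf4, a nuclear receptor gene, had 245.2 and 121.6, and 53.67 and 51.51.

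Heat shock, muscle and insulator genes had few members each. Hsp27 had 221.4 in replicate 1 and 152.2 in replicate 2 and was in both lists. Hsp22 had 77.05 and 43.44 and Hsp26 had 36.04 and 66.8, and neither was in both. The nesprin gene Msp300 (126.4 and 97.88) was the 1 of 4 muscle genes in both lists, with the actin-capping tropomodulin gene tmod at 45.42 and 48.36 and the myoblast fusion gene rols at 58.95 and 41.06. The insulator protein genes row (65.5 and 75.3) and BEAF-32 (59.75 and 70.06) were both in both lists. So were Trl, which encodes the GAGA factor (76.26 and 51.13), the cell cycle factor gene Dp (87.98 and 73.61) and the proteasome maturation gene Pomp (63.85 and 65.47). None of the 6 autophagy and vesicle traffic genes was in both, among them the proton pump subunit genes Vha100-2 (71.3 and 39.13) and Vha68-2 (27.38 and 52.84) and the endosomal GTPase gene Rab5 (57.59 in replicate 1 and no value in replicate 2).

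The DNA under the summits was rich in A and T. Within 50 bp of the summit the members averaged 65.96% A+T (SD 10.7, n = 600), against 59.8% in windows centred 300 bp upstream and 53.3% in windows 300 bp downstream. Peaks between divergent starts averaged 70.3% (n = 269), peaks over 500 bp from a start 64.1%, and candidates at the same kind of promoter 52.01%. Windows at the members' median position, 156 bp upstream, over all 13834 protein-coding starts without a partner averaged 61.7%. These are descriptions across peaks.

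**Figure D5:**
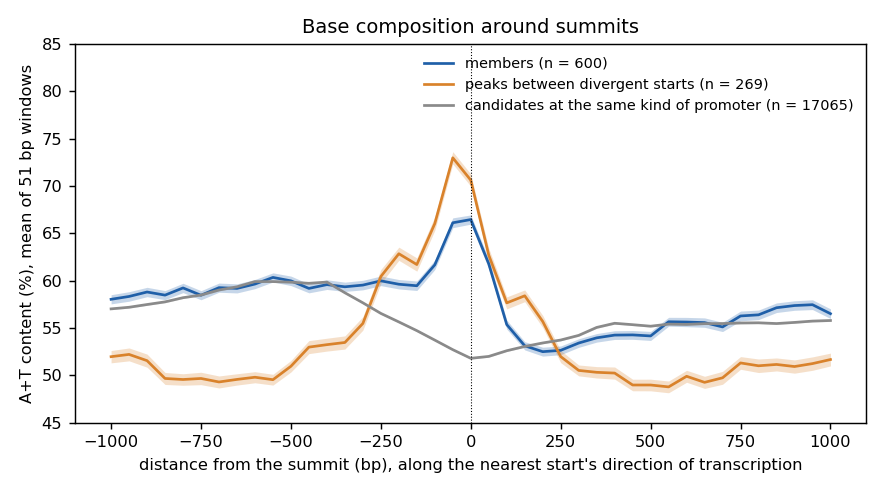
Mean A+T content in percent of 51 bp windows by distance from the summit in bp, for members, peaks between divergent starts and candidates at the same kind of promoter; shading is the standard error over peaks and the vertical axis does not start at 0. Members rise to 66.5% at the summit from either side, divergent peaks rise higher, and candidates are lowest at the summit, at 51.8%.

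TATAAA, the TATA box word, was more frequent at the summits than in the upstream flank, and GAGAG, the word of the GAGA factor, was less frequent. TATAAA was within 50 bp of the summit in 131 of 600 members (21.8%) and in 69 flanks (11.5%, adjusted p = 3.55e-05, exact McNemar test). GAGAG was in 8.67% of summits and 19.2% of flanks (adjusted p = 3.33e-06, exact McNemar test). These 2 of 16 words (12.5%) were called (exact McNemar test between the summit and flank of the same member, Benjamini-Hochberg). Among all 13834 single starts 17.1% held TATAAA and 15.3% held GAGAG in a window of the same length at the same place. At the 1014 summits over 500 bp from every start, 19.5% held TATAAA, 11.6% GAGAG and 8.58% TAATTA. The share of TATAAA at member summits was thus close to that of peaks away from promoters. The homeodomain core word TAATTA was in 11.8% of members, 8.17% of flanks and 8.49% of all such promoters, and did not pass (adjusted p = 0.143, exact McNemar test). TAATTA did pass among the members above the median signal of the list, where it was in 15.6% of summits and 5.88% of flanks (adjusted p = 0.000468), among those with q of at most 0.05 (adjusted p = 8.38e-05), in replicate 1's own list (adjusted p = 0.000334) and against the downstream flank (adjusted p = 1.64e-10), each by the exact McNemar test. It did not pass in replicate 2's own list or in the authors' conservative list. Nor did it pass within 250 bp or 1000 bp of a start, or with protein-coding starts alone. The call was also missing without peaks that overlap a stronger one, and in narrower or wider windows. Summit and flank differ in A+T content as given above, and its part in these word counts was not tested.

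The usual place of a TATA box is just upstream of the start, outside most of the summit windows, and was searched separately. Among the protein-coding starts nearest to members, 18 of 509 (3.54%, 2.25 to 5.52) had TATAAA at 20 to 40 bp upstream on the strand of the gene, against 1012 of 13834 single starts in all (7.32%). The initiator word TCAGTT at the start was in 10.8% of member starts and 8.05% of all, and the downstream element word CGGTTC in 3.14% and 1.27%. The 13834 are starts of genes without a head-to-head partner, whereas the 509 were not limited in this way. These shares therefore set unlike sets of starts side by side, and so do the comparisons of summit words with all single starts. Members with TATAAA at the summit were in both lists in 63.4% of cases, against 44.1% of members without, and members with GAGAG in 30.8% against 50%. CG18549 and CG1907, shown above, were the strongest with each.

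The other words were CAGCTG (2% of members, 4.50% of flanks, 4.32% of all single promoters), CATCNCTA (1.67%, 0.167% and 0.694%), ATTTGCAT (2.17%, 0.833% and 1.60%), TTTATG (13.7%, 12.2% and 11.5%) and TAATGG (3.83%, 4% and 4.55%). TCAGTT was at 5.83%, 5.17% and 6.85%, CGGTTC at 1.83%, 2.17% and 2.45%, and GATAAG at 5.33%, 5.50% and 6.81%. Of all single promoters TATCGATA was in 0.716%, GGTCACACT in 0.224%, CACGTG in 1.11%, CAGGTA in 2.44% and GGTTCGA in 0.701%, and each of these 5 was in at most 1.5% of members and at most 2% of flanks. All were searched on both strands, and a missing match says only that these letters are not in the window. Against the summits between divergent starts, 0 of 16 words (0%) were called by Fisher's exact test, and 1 had an unadjusted p under 0.05: TATAAA, in 21.8% of members and 31.2% of divergent summits (p = 0.00378, adjusted p = 0.0606). In windows reaching 100 bp to either side that difference passed, at 34.5% and 50.2% (adjusted p = 0.00014, Fisher's exact test), as did GAGAG at 26.5% and 11.9% (adjusted p = 1.43e-05, Fisher's exact test), TATCGATA at 1.5% and 6.69%, and CATCNCTA at 3.83% and 10.8%.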

How the data were processed

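The authors deposited ranked and thresholded peak lists on dm6, per the labels, for each replicate and for both together; the cut is by irreproducible discovery rate, per the files' own notes. Which aligner and which peak caller were used is not given in the sources used here. Each deposited peak has a signal value, which is the authors' own and served to describe, rank, filter and split peaks within a list. The deposited q value is given as −log10 q, in the lists over both replicates on a log10 scale that dips slightly below 0.

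Summits were placed on Ensembl release 115 (BDGP6 54) transcript starts without pseudogenes and transposable elements. Peaks overlapped when they shared 1 bp. A replicate's signal value is that of its ranked peak over the member's summit. Gene lists (22; 15 names matched through synonyms and 11 unmatched) are counted without a test. Fisher's exact tests, exact McNemar tests and Benjamini-Hochberg adjustment at 0.05 compare peaks, not samples. All were tested on simulated data. Intervals are 95% Wilson (shares) or Woolf (odds ratios). The upper limit of a count of 0 is 3 counts. Members, lists and words were chosen with earlier results of these data known. Named genes are those of the 20 strongest members, up to 3 per list (members in both replicates' lists first, then by signal value), the 5 genes with the most members, the 3 strongest at non-coding starts, and the strongest with each called word. Best2 was chosen after its values were seen. A result that this rule would name is not reported here. Alternatives were the conservative list, each replicate's own list, other distances, starts, overlaps, signal and q limits, candidates, windows and flanks. Python 3.11.15, numpy 2.4.6, pandas 2.3.3, scipy 1.17.1 and matplotlib 3.10.9 were used.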

Additional observations from a re-analysis of the deposited data

How the results depend on the processing

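Members kept their side of the test against non-promoter peaks in every alternative run, with odds ratios of 1.71 to 2.36 for replicate support and 1.46 to 2.34 for strong signal, and the upstream odds ratio stayed between 4.62 and 10. Against divergent peaks the replicate support difference passed within 250 bp (0.545) or 1000 bp (0.709) of a start, at 50% overlap (0.704) and with summits within 100 bp (0.746). The strong signal difference was lost with the conservative list (0.764), without peaks that overlap a stronger one (0.723), with the strongest 25% as strong (0.764) and with 1 replicate left out (0.838 to 0.881). The share of candidates at single promoters that overlapped a thresholded peak was 3.13% with the conservative list, 5.49% within 250 bp and 2.66% within 1000 bp. It was 2.03% with q of at most 0.05, and 2.42% to 4.23% with 1 replicate left out. Genes with a member numbered 294 with q of at most 0.05 and 357 to 413 with 1 replicate left out. Words called against the flank numbered 5 with the downstream flank and 2 to 4 with 1 replicate left out, and 4 were called against divergent summits in windows reaching 100 bp to either side. GAGAG lost its call against the flank in those windows (-6.17 percentage points, adjusted p = 0.0895, exact McNemar test). CATCNCTA gained a call there, at 3.83% of summits and 1.17% of flanks (adjusted p = 0.0418, exact McNemar test). CAGCTG, the rarer at summits, was called in replicate 1's own list, within 1000 bp and against the downstream flank (adjusted p = 0.0135, 0.00637 and 0.00766, exact McNemar test). TCAGTT, also rarer at summits, was called against the downstream flank (adjusted p = 0.0367, exact McNemar test). The cause of these changes was not tested. Strong signal could not be compared with q of at most 0.05, since every such peak was strong. Chosen after seeing the data, non-promoter peaks of the arms alone gave 2.14 and 1.83, and leaving out overlapping weaker peaks left 518 genes with a member. No paired comparison of samples was possible because there was 1 group.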
